A study of Mus musculus with 36 samples.

Results

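Interferon-stimulated genes are the genes that cells switch on after a type I, type II or type III interferon binds its receptor. A list of 38 of them was followed through single cells of the mouse heart, out of 20720 nuclear genes with at least 1 count in the tables. Members were taken by symbol, with no threshold on a measured value. All 38 symbols were found, each as 1 row, and each had counts in the cells kept. They fall into 7 groups by role, comprising 4 transcription factors, 4 nucleic acid sensors, 3 genes of the ISG15 system, 12 antiviral effectors, 6 guanylate-binding and immunity-related GTPases, 2 genes of the PYHIN family of DNA-binding proteins, and 7 others.

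Type I interferon signals through the receptor chains IFNAR1 and IFNAR2 and the kinases JAK1 and TYK2 to a transcription factor complex that holds STAT2 and IRF9 and binds interferon-stimulated response elements in the promoters of target genes. Interferon gamma acts through gamma-activated sites and drives genes such as Irf1 and the guanylate-binding proteins. In the infarcted heart this response is best known from macrophages that sense nucleic acid of dead cells through the cGAS, STING and IRF3 route.

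Hearts came from male C57BL/6 mice aged 8 weeks, and cells were taken from the infarcted region of the left ventricle or the matching region after sham surgery. The 36 plates were 4 of sham surgery at day 1 and 8 at day 14, 9, 7 and 3 of ischemia-reperfusion (IR) at days 1, 3 and 14, and 5 taken 3 days after surgery for myocardial infarction (MI). In IR the left anterior descending artery was tied for 1 hour and then released, whereas in MI the tie was permanent. The labels name no transgene or drug. The labels do not say which mouse gave which plate, and there were more plates than mice in most groups, so plates share mice and p-values over plates are too small. MI plates form a set of their own with deeper cells, so surgery and set cannot be told apart. A sham group matched to day 3 is not part of the comparisons, and shams of days 1 and 14 take its place.

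SORT-seq places 1 sorted cell in each well of a multiwell plate and counts transcripts by a unique molecular identifier (UMI). Wells of at least 1000 nuclear UMIs were kept, which gave 3126 cells. Totals ran from 176614 to 5551870 UMIs per plate, and the median cell of MI plates held 13120 nuclear UMIs against 2217 to 3230 in the other groups. A pair of day 14 sham plates shared 85 of 97 compared wells and was counted as 1 plate, and 20 other kept wells that repeated a well of another plate were removed. Cells were clustered without the 38 genes and clusters were named from marker genes, which gave 1215 cardiomyocyte-like, 626 macrophage-like, 419 endothelial-like, 293 fibroblast-like and 155 neutrophil-like cells. Cell counts and values pooled over cells include 37 cells of the second copy of that sham plate (26 cardiomyocyte-like, 8 endothelial-like and 1 fibroblast-like, the rest unnamed), and levels per plate and tests do not count them again. The 38 genes together held 56655 of 30717304 UMIs (0.184%, or 0.185% without the second copy), of which 27084 were in macrophage-like cells. Levels are given below as CPM, the UMIs of a gene scaled to 1000000 nuclear UMIs of that class on 1 plate, for plates with at least 5 cells of the class. Each transcript is tagged at 1 end, so a level does not scale with gene length.

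The response elements of the pathway were visible in the reference sequence of the members. RefSeq promoters on GRCm38.p6, from 250 bases before to 50 bases after the start of the gene, were at hand for 30 of the 38 genes. The motif of the interferon-stimulated response element (ISRE) was searched as GAAA, 2 bases of any kind and GAAA, on both strands, and the gamma-activated site (GAS) as TTC, 3 bases of any kind and GAA, on both strands. The ISRE motif lay in 15 of the 30 promoters, against 3.99% of 27025 genes with a promoter in the same table. The GAS motif lay in 9 of the 30, against 9.55% of those genes. Among the GTPases 5 of 6 promoters held the ISRE motif, among the antiviral effectors 5 of 10, among the sensors 2 of 2 and among the transcription factors 1 of 4. The stretches below, of 60 bases each on the strand of the gene, were chosen among promoters that hold a motif, from genes that differ in a comparison further on and, for Isg15 and Ifit3, as textbook members that did not pass in most comparisons. Oasl2, Cmpk2, Ifi47, Slfn2, Irf7 and Samd9l, which also differed in a comparison, held neither motif in this window and are not shown. Capitals mark the ISRE motif in either orientation, and in Irf1 the GAS motif. Isg15 (chr4:156200856-156200915, minus strand) holds 3 overlapping copies, Ifit1 (chr19:34640769-34640828, plus) and Ifit3 (chr19:34583365-34583424, plus) 2 separate ones, Rsad2 (chr12:26456538-26456597, minus) 1, Irgm1 (chr11:48871421-48871480, minus) and Gbp3 (chr3:142559977-142560036, plus) 2 overlapping ones, Gbp2 (chr3:142620579-142620638, plus) and Gbp7 (chr3:142530258-142530317, plus) 1 each, and Irf1 (chr11:53769898-53769957, plus) 1 GAS motif.
Isg15: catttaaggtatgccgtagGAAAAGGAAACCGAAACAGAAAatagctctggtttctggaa
Ifit1: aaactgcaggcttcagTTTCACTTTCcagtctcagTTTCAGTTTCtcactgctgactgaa
Ifit3: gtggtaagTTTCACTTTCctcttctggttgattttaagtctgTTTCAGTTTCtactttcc
Rsad2: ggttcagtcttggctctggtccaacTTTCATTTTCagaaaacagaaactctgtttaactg
Irgm1: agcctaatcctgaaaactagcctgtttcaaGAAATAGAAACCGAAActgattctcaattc
Gbp2: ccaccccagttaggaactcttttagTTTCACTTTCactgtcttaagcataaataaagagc
Gbp3: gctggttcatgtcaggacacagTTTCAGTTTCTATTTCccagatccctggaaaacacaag
Gbp7: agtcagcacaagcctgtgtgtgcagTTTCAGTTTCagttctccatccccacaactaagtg
Irf1: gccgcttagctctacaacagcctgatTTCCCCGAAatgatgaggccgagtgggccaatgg

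Across classes the members were lowest in cardiomyocyte-like cells and differed in where they were highest. Averaged over groups, 21 of the 38 had their highest level in endothelial-like cells, 10 in neutrophil-like, 5 in macrophage-like and 2 in fibroblast-like cells, while 35 had their lowest in cardiomyocyte-like cells. Neutrophil-like plates came only from IR day 1 and MI, so these averages cover different groups. Over IR day 1 and MI alone, 19 members were highest in neutrophil-like, 14 in endothelial-like and 5 in macrophage-like cells, and 27 were lowest in cardiomyocyte-like cells. Classes came from clustering these same cells, so this is a description with no test. Ifitm3, which restricts virus entry at membranes, was the most abundant, with 936 CPM in endothelial-like, 823 in macrophage-like, 816 in fibroblast-like, 364 in neutrophil-like and 59.1 in cardiomyocyte-like cells. Over IR day 1 and MI alone it was at 1164 in endothelial-like, 1021 in fibroblast-like and 630 in macrophage-like cells. How close these classes lie thus depends on the groups averaged. Other members were far more restricted.

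Rsad2, the antiviral enzyme viperin, stood at 214 CPM in endothelial-like cells, 83.8 in neutrophil-like, 39.6 in macrophage-like, 8.15 in cardiomyocyte-like and 6.94 in fibroblast-like cells. Over IR day 1 and MI alone it was at 61.9 in endothelial-like, 83.8 in neutrophil-like and 30.6 in macrophage-like cells, so its lead in endothelial-like cells rests on the other groups. Ifi44 averaged 103 in endothelial-like cells and at most 18.3 in any other class. Gbp7, a guanylate-binding GTPase, stood at 200 in endothelial-like, 103 in macrophage-like, 82.0 in neutrophil-like, 58.9 in fibroblast-like and 13.5 in cardiomyocyte-like cells, and over IR day 1 and MI alone at 81.4 in endothelial-like and 82.0 in neutrophil-like cells. The tetherin gene Bst2, whose product holds budding virus at the cell surface, was highest in endothelial-like cells (180), then macrophage-like (113), fibroblast-like (66.9), neutrophil-like (33.3) and cardiomyocyte-like cells (9.10).

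Leukocytes led for a second set. Slfn2, a Schlafen family gene of immune cells, stood at 563 CPM in neutrophil-like, 164 in macrophage-like, 63.5 in endothelial-like, 14.2 in fibroblast-like and 9.69 in cardiomyocyte-like cells. Trim30a had 278 in neutrophil-like and 142 in macrophage-like cells, against 98.9 in endothelial-like, 20.5 in fibroblast-like and 9.77 in cardiomyocyte-like cells. Irf1, a transcription factor induced by interferon gamma, stood at 138 in neutrophil-like and 131 in endothelial-like cells and was lower in macrophage-like (69.0), fibroblast-like (44.5) and cardiomyocyte-like cells (1.67). Over IR day 1 and MI alone it was at 138 in neutrophil-like and 80.2 in endothelial-like cells. Ifi27l2a was the one abundant member shared by macrophage-like (327) and fibroblast-like cells (242) and nearly missing from endothelial-like cells (8.98). The PYHIN gene Ifi204 was a macrophage-like and neutrophil-like gene, with 125 and 96.8 against at most 31.7 elsewhere.

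Among groups the abundant members varied in different ways. Ifi27l2a in fibroblast-like cells stood at 462 ± 109 CPM at day 1 sham (n = 3), 39.6 ± 32.9 at IR day 1 (n = 5), 167 ± 71.1 at IR day 3 (n = 4), 270 ± 159 at IR day 14 (n = 2) and 60.9 ± 18.3 in MI (n = 5), with the SDs of IR day 1 and MI overlapping. These groups held different clusters. In the cluster led by Pi16, Gsn and Dcn, pooled over plates, it stood at 498 at day 1 sham and 506 at IR day 1. That cluster held 23 of 23 cells at day 1 sham and 10 of 50 at IR day 1. The other 40 sat in the cluster led by Timp1, Tnc and Cthrc1, at 33.5. In macrophage-like cells the same gene spread so widely (347 ± 350 at IR day 1, n = 9, and 384.96 ± 338 at IR day 3, n = 6) that these groups do not differ beyond their plates. Trim30a in macrophage-like cells stood at 115 ± 71.1 at IR day 1, 202 ± 135 at IR day 3 and 104 ± 9.64 in MI. Bst2 in endothelial-like cells stood between 118 ± 99.8 (IR day 1) and 250.7 ± 100 (day 14 sham), with wide overlap, and Ifitm3 there between 559 ± 343 (IR day 3) and 1399 ± 638 (IR day 1).

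**Figure D1:**
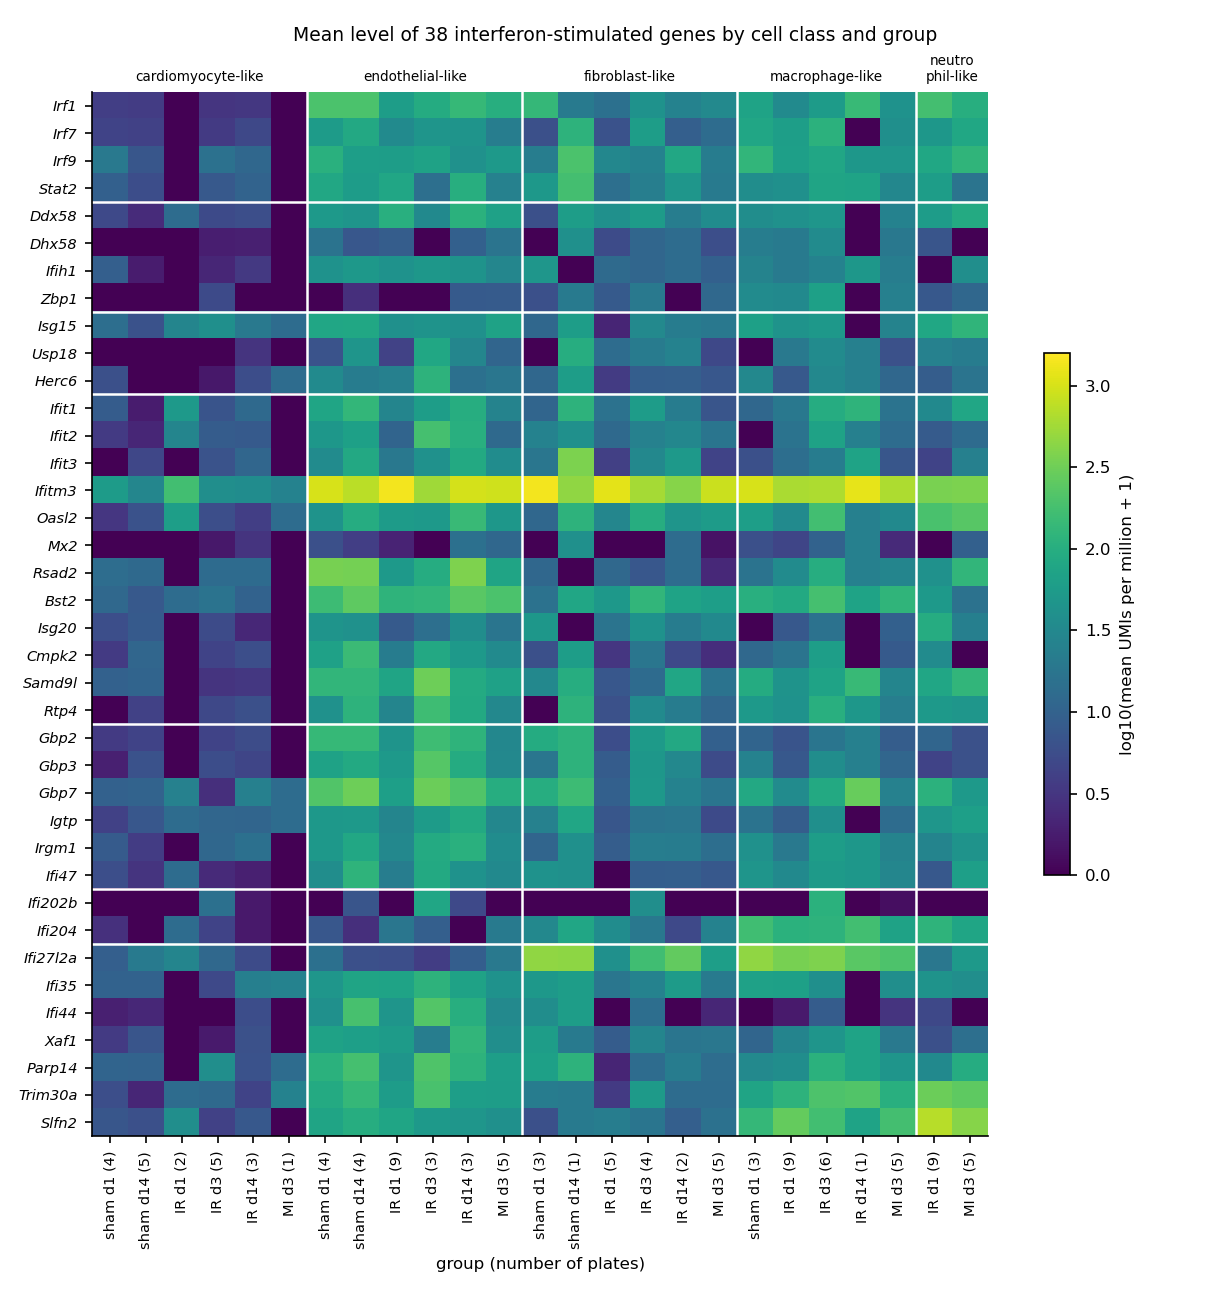
Mean level of each of the 38 genes (rows, grouped by role) in each class and group (columns, with the number of plates), coloured by log10 of CPM plus 1, from dark (low) to bright (high). Cardiomyocyte-like columns are dark for nearly all genes apart from Ifitm3, and Rsad2, Gbp2, Gbp3 and Ifi44 are brightest in endothelial-like columns.

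The summed level of the 38 genes was lowest in cardiomyocyte-like cells in every group and varied among plates of a group. In cardiomyocyte-like cells it was 244 ± 86.5 CPM at day 1 sham (SD, n = 4 plates), 194.4 ± 94.8 at day 14 sham (n = 5), 504 ± 92.7 at IR day 1 (n = 2), 296 ± 92.5 at IR day 3 (n = 5), 275 ± 60.9 at IR day 14 (n = 3) and 152 in the 1 MI plate. In endothelial-like cells it was 3661 ± 398 (n = 4) and 4330 ± 1028 (n = 4) in the shams, 2868 ± 873 (n = 9), 4035 ± 1938 (n = 3) and 4078 ± 1151 (n = 3) in IR at days 1, 3 and 14, and 2446 ± 449 (n = 5) in MI. All 5 MI plates, from 2070 to 2942, lay below all 8 sham plates, from 3174 to 5753, whereas the IR groups overlapped the shams.

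Fibroblast-like cells held 2858 ± 468 CPM at day 1 sham (n = 3), 1609 ± 320 at IR day 1 (n = 5), 1910 ± 449 at IR day 3 (n = 4), 1614 ± 726 at IR day 14 (n = 2) and 1476 ± 141 in MI (n = 5), with 3722 in the 1 day 14 sham plate. In macrophage-like cells the sum was 3047 ± 979 at day 1 sham (n = 3), 2381 ± 813 at IR day 1 (n = 9), 3600 ± 928 at IR day 3 (n = 6) and 1975 ± 352 in MI (n = 5), with 3391 in the 1 IR day 14 plate. Neutrophil-like cells, seen only at IR day 1 and in MI in number, held 2930 ± 1139 (n = 9) and 2840 ± 604 (n = 5), which overlapped the endothelial-like plates of the same groups. Macrophage-like plates of IR day 3 spanned 2476 to 4970 and those of MI 1673 to 2548, so that these groups met only at their edges.

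**Figure D2:**
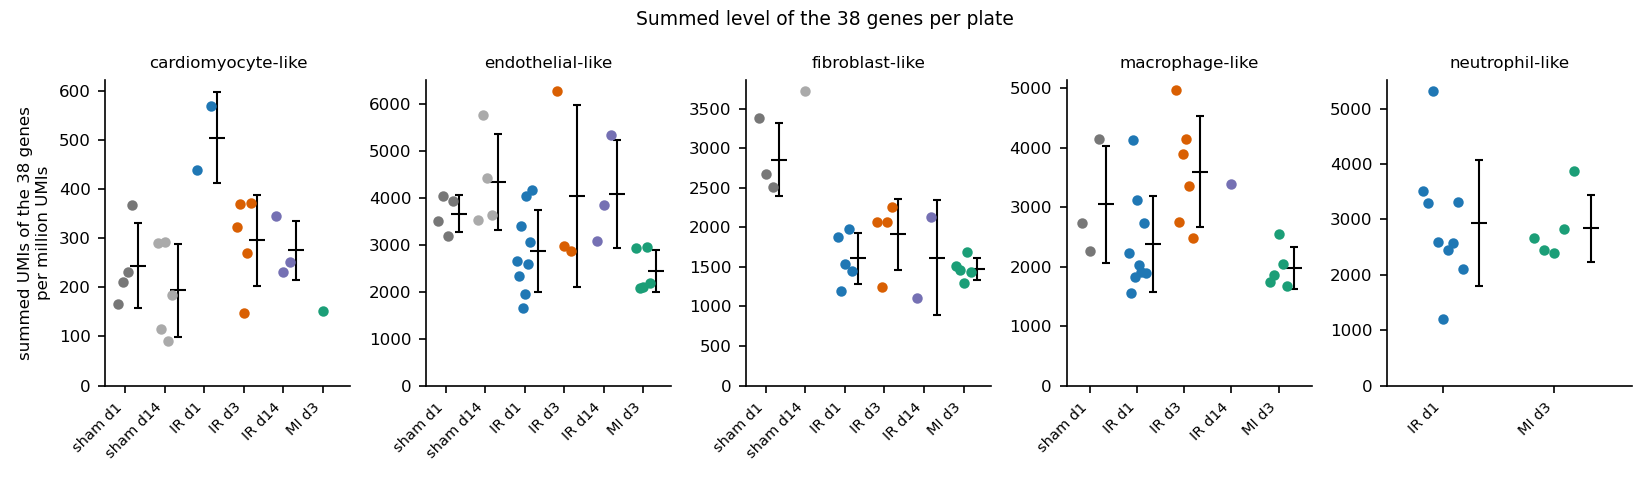
Summed level of the 38 genes in CPM (vertical axis) for each class and group. Each point is 1 plate and black bars give the mean ± SD where a group has more than 1 plate. Endothelial-like MI plates lie below all sham plates, and cardiomyocyte-like plates lie at 570 or below in every group.

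Within classes the groups were compared gene by gene by edgeR's quasi-likelihood test over all genes that passed a filter on low counts, and a gene is called where its Benjamini-Hochberg adjusted p was below 0.05. The filter let through 28 of the 38 genes in macrophage-like cells, 25 in fibroblast-like, 24 in endothelial-like, 6 in cardiomyocyte-like and 2 in neutrophil-like cells. Igtp, Isg20, Herc6, Dhx58 and Mx2 were tested in no class. Of these, Igtp reached 86.2 ± 9.62 CPM in endothelial-like cells of IR day 14 (n = 3), and Mx2 was the sparsest member, with 72 UMIs in 48 cells. Members with close relatives (Ifit3, the PYHIN, GTPase, Schlafen and Trim30 genes) can share reads with those relatives, so their levels are uncertain. The median SE of a member's log2 fold change was 0.44 in macrophage-like cells for IR day 3 against IR day 1 and 0.51 in endothelial-like cells for IR day 1 against sham, so members not called may still differ.

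Macrophage-like cells pooled several clusters, and 1 of them did not meet its name by its leading genes. In the Ccr2 and MHC class II cluster (179 cells) the 10 leading genes held 0 macrophage markers and 1 B cell marker, Cd79a, which came from 7 cells. Between 45.8% and 86.6% of its cells carried each of the 8 macrophage markers (Cd68, Csf1r, C1qa, C1qb, C1qc, Lyz2, Mrc1 and Fcgr1), and 6 cells, 5 of them from IR day 1, had at least 3 UMIs of B cell markers. The cluster held most macrophage-like cells of IR day 1, so the main member result of each comparison below is given for the pooled cells, then without the 11 macrophage-like cells with B cell markers and without this cluster. Both settings were chosen after seeing the data. Pathway genes and shares of cells are given for the pooled cells only.

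In macrophage-like cells, 10 of the 28 tested members were higher at IR day 3 than at IR day 1 and 1 was lower. Without the cells with B cell markers 6 of 28 were higher and 1 lower, where 11.8% of all genes were higher, and without the Ccr2 cluster, which leaves 1 plate of IR day 1 against 6, 1 of 33 was called, Ifi202b, where 1.68% of all genes were called. Ifi202b passed the filter through the IR day 3 plates in which it was high, so its call is not read, and without it 9 of 27 were higher with a median log2 fold change of 0.71. The filter ran over all groups of the class. Among IR day 1, IR day 3 and MI, the highest plates of Oasl2, Cmpk2, Parp14 and Stat2 were also from IR day 3. Against IR day 1 the same held for Irgm1 and Ifi47. These genes too may have passed through those plates, so their calls carry that limit. Of all 5148 genes tested in this class 26.0% were called in this comparison, with 13.9% higher. The median log2 fold change was 0.72 over the 28 members and 0.05 over all genes. By role, 5 of 10 antiviral effectors rose, 2 of 3 GTPases, 1 of 4 transcription factors and 1 of 6 others, of which 1 other fell, and neither of the 2 sensors nor Isg15 was called. In the cells left without the Ccr2 cluster the log2 fold changes were 0.43 for Oasl2, 0.76 for Ifit1, 1.2 for Rsad2, 1.25 for Parp14, 0.91 for Irgm1 and −1.05 for Slfn2, none of them called. Where values of more than 5 plates are summarized, the lowest, the median and the highest plate are given.

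Oasl2, an oligoadenylate synthetase-like antiviral protein, had 0, 36.3 and 88.2 CPM at IR day 1 and 106, 132 and 317 at IR day 3. All 6 plates of day 3 lay above all 9 of day 1, and the log2 fold change was 1.69 ± 0.35 (SE, adjusted p = 0.000678). For Parp14, an ADP-ribosyltransferase, the values were 0, 28.1 and 84.9 at day 1 and 70.5, 104 and 164 at day 3, a log2 fold change of 1.28 ± 0.34 (adjusted p = 0.00537) with overlap at the edge of the groups. Irgm1, an immunity-related GTPase of membranes and autophagy, stood at 0, 9.36 and 85.9 against 29.5, 55.8 and 106 (1.91 ± 0.48, adjusted p = 0.00389). Only 1 plate of day 1 reached into the range of day 3.

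The IFIT proteins bind foreign RNA, and Ifit1 had 0, 0 and 137 CPM at IR day 1, where 6 of 9 plates were at 0, and 0, 78.8 and 191 at IR day 3. The groups overlapped over most of their range and the log2 fold change was 1.93 ± 0.59 (adjusted p = 0.0148). Cmpk2, a nucleotide kinase that lies beside Rsad2 on chromosome 12, had 0, 0 and 52.3 against 0, 57.4 and 143 (1.88 ± 0.55, adjusted p = 0.0107). Rsad2 itself had 0, 12.1 and 199 against 0, 48.4 and 379 (1.67 ± 0.60, adjusted p = 0.0377) and Ifit2 0, 0 and 124 against 0, 72.0 and 155 (1.73 ± 0.64, adjusted p = 0.0441). In these 4 genes both groups held plates at 0. Without the cells with B cell markers Rsad2 (1.57, adjusted p = 0.051) and Ifit2 (1.64, 0.0545) were not called. Over all alternatives Ifit2 lost its call with the same sign in 21 of 32, and its sign turned in 1 more. Rsad2 lost its call with the same sign in 17 of 33, and its sign turned in 2 more.

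Ifi47, another immunity-related GTPase, had 10.4, 16.7 and 85.9 CPM at IR day 1 and 20.5, 51.5 and 111 at IR day 3 (1.27 ± 0.45, adjusted p = 0.0362). Stat2, a transcription factor of the type I signal, had 13.3, 30.6 and 85.9 against 35.2, 67.8 and 122 (0.95 ± 0.31, adjusted p = 0.0198). Slfn2 moved the other way, with 78.7, 310 and 429 at day 1 and 103, 145 and 317 at day 3 (−0.90 ± 0.29, adjusted p = 0.0193). Groups overlapped for all 3 genes, and the day 3 plate with the highest Slfn2 stood apart from the other 5. Without the cells with B cell markers Ifi47 (1.18, adjusted p = 0.0516) and Stat2 (0.82, 0.0508) were not called. Over all alternatives the call was lost in 15 of 30 for Ifi47. For Stat2 it was lost with the same sign in 13 of 32, and the sign turned in 1 more.

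The members not called lay between −0.75 and 1.18 on the log2 scale. Isg15, the ubiquitin-like modifier, was at −0.26 ± 0.49 (adjusted p = 0.756), Ifit3 at 0.90 ± 0.71 (0.387), Irf7, which amplifies type I interferon output, at 0.40 ± 0.54 (0.637), Ifitm3 at −0.03 ± 0.24 (0.956) and Irf1 at 0.56 ± 0.40 (0.327). Gbp2 did not pass the filter in this class.

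Ifi202b, a PYHIN gene whose product binds DNA, was found at IR day 3 in 3 plates and nearly nowhere else. In macrophage-like cells it stood at 246 CPM (345 UMIs) in replicate 4, 226 (22 UMIs) in replicate 6 and 178 (121 UMIs) in replicate 7 of IR day 3, and at 0 in replicates 1, 3 and 5. The plates at 0 held 28370 to 40983 UMIs of this class, which allow up to 73.2 to 106 CPM (3 UMIs, counting error only), so these 3 lay below the other 3 beyond what their depth hides. All 9 plates of IR day 1 and the 3 of day 1 sham had 0, and the 5 of MI had 0.533, 0.504, 0, 0.63 and 0. Summed over plates, IR day 3 had 488 of 2276507 UMIs and IR day 1 had 0 of 1149447, at least 82.1-fold higher against a floor of 3 UMIs over the group.

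The gene was present across the classes of those 3 plates. Counting all cells, replicate 4 held 394 Ifi202b UMIs in 82 of 264 cells, replicate 7 held 143 in 57 of 202 and replicate 6 held 24 in 5 of 43, while replicates 1, 3 and 5 held 0 and plates of the other groups 0 to 2 UMIs each. In endothelial-like cells it reached 74.7 CPM in replicate 4 and 158 in replicate 7, in fibroblast-like cells 57.5 and 89.99, and in cardiomyocyte-like cells 15.03 and 21.6, with 33.7 in replicate 6. Among macrophage-like cells of IR day 3, 109 of 195 carried it (55.9%), and the cell with the most held 9.22% of its UMIs. Day, surgery and treatment do not separate these 3 plates from the other IR day 3 plates; differences between their mice were not tested.

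A few cells held a large share of the UMIs of several other genes, pooled over a group in which replicate 4 gave 1402314 of 2276507 UMIs. At IR day 3 the macrophage-like cell with the most held 46.7% of the Ifit1 UMIs of the group, 49.4% of Rsad2, 54.9% of Ifit2, 46.4% of Ifit3 and 55.4% of Cmpk2, against 16.3% of Oasl2 and 11.6% of Parp14. In replicate 4 there was 1 cell with 1386 UMIs of the 38 genes out of 23920 (5.79%), covering 37 of the 38, led by Rsad2, Ifit1, Ifit2, Cmpk2 and Ifit3. Cells with at least 2% of their UMIs in the 38 genes numbered 3 of 195 at IR day 3 (5.79% and 4.44% in replicate 4, 2.95% in replicate 7), 1 of 114 at IR day 1 (2.13%, replicate 3) and 0 of 282 in MI. The 3 cells of IR day 3 held 23.2% of the member UMIs of their group. With the 1 cell of most member UMIs left out of each plate, 5 of 23 tested members were called (25.5% of all genes), with Bst2, Ifi202b and Oasl2 higher and Ifi35 and Slfn2 lower. The log2 fold changes were then 1.40 for Ifit1 (adjusted p = 0.0768), 1.60 for Rsad2 (0.0594), 0.79 for Parp14 (0.0912), 0.82 for Stat2 (0.0921), 1.36 for Oasl2 (0.014) and −1.13 for Slfn2 (0.00583). Without replicate 4 of IR day 3, 3 of 26 tested members were called (19.6% of all genes). With only these 2 groups in the fit 7 members passed the filter, of which Oasl2 was called and Slfn2 was not, while the other 9 of the 11 genes were not tested. Every IR day 3 plate of Oasl2 lay above those of IR day 1, so it may have passed through IR day 3 alone.

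The macrophage-like groups also sat in different clusters. The cluster led by Gpnmb and Ms4a7 held 155 of 195 cells at IR day 3, 13 of 114 at IR day 1 and 18 of 282 in MI, whereas the Ccr2 and MHC class II cluster held 77 of 114 at IR day 1. Within the Gpnmb cluster the summed member level was 4331 CPM at IR day 1 and 3545 at IR day 3. Replicate 3 of IR day 1 gave 346 of the 406 member UMIs there, and without it the level of IR day 1 was 2236, below that of IR day 3. It was also the only IR day 1 plate with at least 5 cells of this cluster, so a fit within the cluster sets 1 plate against 5, assumes that the lone plate varies like the others, and does not show whether the members changed within it. In the Ccr2 cluster the sums were 2381 and 2912, or 1764 at IR day 1 without its replicate 3 and 2219 at IR day 3 without its replicate 4, and 0 of 16 tested members were called with 9 plates against 2, where 3.96% of all genes were. The cluster led by Arg1 and Spp1 had sums of 2460 at IR day 1 (21 cells) and 2015 at IR day 3 (8 cells). The cluster with Cd163 and Lyve1 among its leading genes had 9181 (3 cells) and 3895 (13 cells). Neutrophil markers moved too, with a median of 725 CPM in macrophage-like cells at IR day 1 and 99.1 at IR day 3, as did the 8 cardiomyocyte markers (250 and 1808). With cells that carried markers of another class left out, these medians were 464 and 98.02 for neutrophil and 250 and 1494 for cardiomyocyte markers, so much of the signal remained. In that fit 8 of 28 members were higher and 1 lower (24.9% of all genes called), and Ifit2 (1.67, adjusted p = 0.0519) and Rsad2 (1.48, 0.0587) were not called. The part of the remaining marker signal was not tested.

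**Figure D3:**
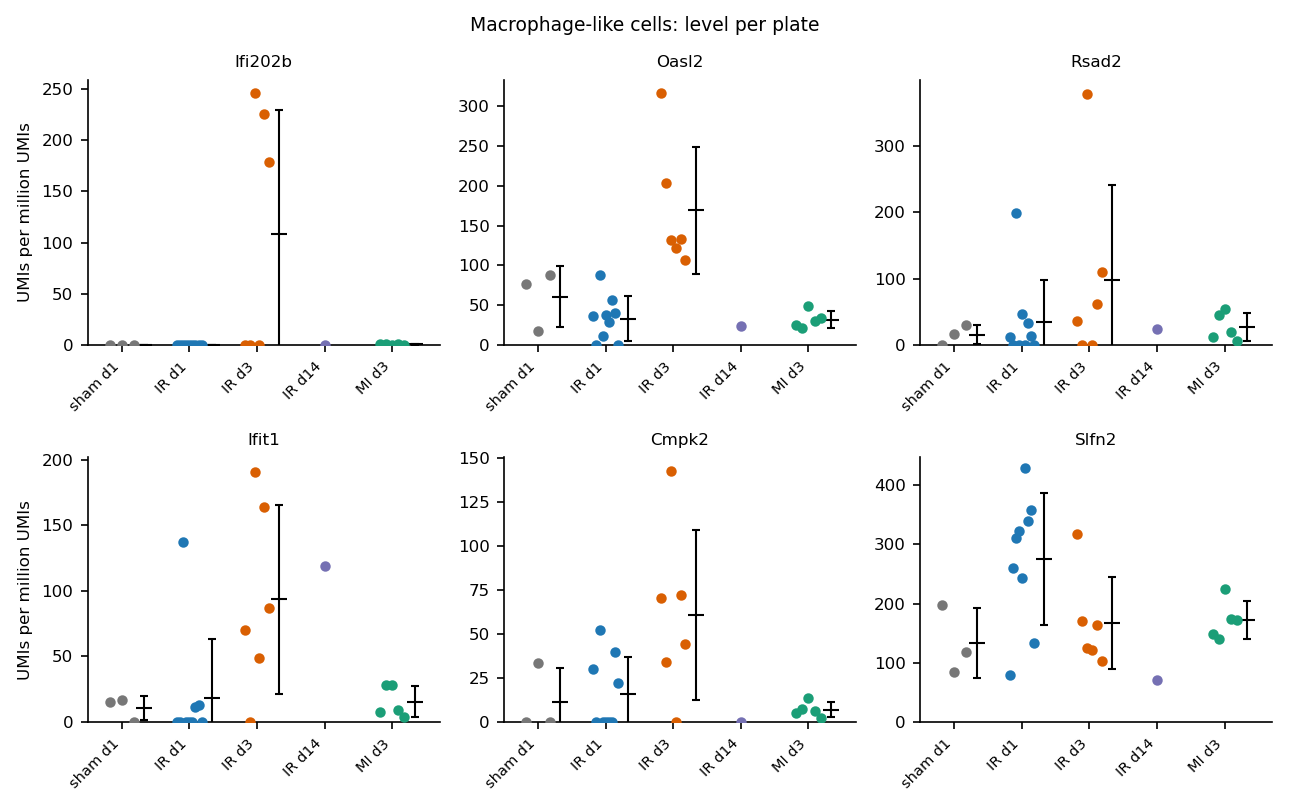
Levels of Ifi202b, Oasl2, Rsad2, Ifit1, Cmpk2 and Slfn2 in macrophage-like cells, in CPM (vertical axes, separate scales), by group. Each point is 1 plate and black bars give mean ± SD, cut at 0. All 6 Oasl2 points of IR day 3 lie above the 9 of IR day 1, and Ifi202b is above 100 in 3 plates of IR day 3.

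Against IR day 3, macrophage-like cells of MI day 3 had 13 of 28 tested members lower and 0 higher. Without the cells with B cell markers it was 13 of 28 and without the Ccr2 cluster 22 of 33, all lower, where 3.32% and 5.67% of all genes were lower. Ifi202b is among the 13 and its call is not read, and without it 12 of 27 were lower with a median log2 fold change of −1.18. The limit on the filter given above for Oasl2, Cmpk2, Parp14 and Stat2 holds here too. Among all 5148 genes 8.29% were called and 3.87% were lower. The median log2 fold change was −1.2 over the members and −0.03 over all genes. Antiviral effectors made up 8 of the 13 (of 10 tested), followed by GTPases with 2 of 3, Stat2 as 1 of 4 transcription factors and Parp14 as 1 of 6 others. This comparison uses the same IR day 3 plates as the one above, so the comparisons are not independent.

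For 5 genes the groups did not overlap. How many of all genes tested did not overlap was not counted, so this is a description of these genes only. Oasl2 had 24.5, 20.7, 49.0, 30.3 and 33.5 CPM in the 5 MI plates, below 106 in each IR day 3 plate (log2 fold change −2.18 ± 0.32, adjusted p = 2.91e-05). Rtp4, an antiviral protein and chaperone of receptors, had 22.4, 28.2, 39.6, 17.0 and 3.14 against 67.9, 86.8 and 220 (−2.13 ± 0.45, adjusted p = 0.0022). Parp14 had 56.5, 53.9, 54.7, 29.0 and 34.6, all under the lowest IR day 3 plate at 70.5 (−1.29 ± 0.30, adjusted p = 0.00522). Stat2 at 24.1 to 33.8 in MI and Gbp7 at 14.7 to 31.7 in MI were likewise below all 6 plates of IR day 3, whose lowest were 35.2 and 41.1. Their log2 fold changes were −1.30 ± 0.27 (adjusted p = 0.00173) for Stat2 and −1.34 ± 0.37 (adjusted p = 0.0218) for Gbp7.

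The genes concentrated in few cells overlapped between groups, since IR day 3 held plates at 0. Cmpk2 had 5.33, 7.56, 13.7, 6.30 and 2.09 CPM in MI (log2 fold change −3.48 ± 0.52, adjusted p = 3.3e-05). Ifit1 had 7.46, 28.2, 28.1, 9.45 and 4.19 (−2.99 ± 0.54, adjusted p = 0.000445) and Rsad2 12.3, 44.4, 54.7, 18.9 and 6.28 (−2.64 ± 0.57, adjusted p = 0.00264). Ifit2 changed by −2.95 ± 0.60 (adjusted p = 0.00171) and Ifit3 by −2.79 ± 0.71 (adjusted p = 0.0108), with Ifit3 at 1.05 to 11.5 in MI and 0, 5.14 and 98.4 at IR day 3. Ifi47 (−1.42 ± 0.39, adjusted p = 0.0181) and Samd9l, a translation-blocking antiviral gene (−1.18 ± 0.27, adjusted p = 0.00526), were lower with overlap. Ifi202b had 3 UMIs of 7791051 in MI against 488 in IR day 3, a level 557-fold lower (95% exact interval 189 to 2709, counting error only).

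Members not called ran from −1.33 to 0.26. They were Irf7 at −1.33 ± 0.51 (adjusted p = 0.105), Isg15 at −0.60 ± 0.46 (0.473), Irf1 at −0.34 (0.607) and Ifitm3 at 0.13 ± 0.26 (0.839) among the fixed examples. Without the Ccr2 cluster Irf7 was called (−1.44, adjusted p = 0.000686). Without replicate 4 of IR day 3, 6 members were lower, and without replicates 4, 6 and 7 together 1 was, where 1.67% and 0.206% of all genes were lower. With the top cell of each plate left out, 9 of 23 were lower, against 3.52% of all genes. Within the Gpnmb and Ms4a7 cluster, where the sum was 3545 CPM at IR day 3 and 1448 in MI, 11 of 29 tested were lower with 5 plates against 2, where 1.72% of all genes were lower. Within the Ccr2 cluster (2912 and 2374) 0 of 16 were called, with 2 plates against 5, where 1.11% of all genes were called. Most MI cells (181 of 282) sat in another cluster, which had Spp1 among its leading genes, with a sum of 1792. Neutrophil markers had medians of 99.1 CPM at IR day 3 and 607 in MI, and cardiomyocyte markers 1808 and 196. With cells that carried markers of another class left out, these were 98.02 and 282 for neutrophil and 1494 and 197 for cardiomyocyte markers, and 13 of 28 members were lower (3.24% of all genes). The part of the remaining marker signal was not tested.

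Macrophage-like cells of MI day 3 and IR day 1 were closer, with 0 of 28 members called in edgeR, 7 at an unadjusted p below 0.05 and 2 in DESeq2, against 6.37% of all genes called in edgeR. Without the cells with B cell markers 0 of 28 were called, and the share of all genes in that fit is not given here. Without the Ccr2 cluster IR day 1 was 1 plate, so no count is read there. The log2 fold changes were then −0.74 for Isg15, −2.95 for Ifit3, −2.08 for Irf7, −0.02 for Ifitm3 and 0.16 for Irf1. In the pooled cells the members ran from −1.89 to 1.29 on the log2 scale with a median of −0.64, against 0.02 over all genes. The lowest were Ifit3 (−1.89 ± 0.76, adjusted p = 0.137) and Cmpk2 (−1.60 ± 0.62, adjusted p = 0.121). Isg15 was at −0.85 (0.249), Irf7 at −0.92 (0.305), Ifitm3 at 0.10 (0.889) and Irf1 at 0.22 (0.813). These intervals are wide: that of Irf7 reached from −1.89 to 0.04.

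The spread over cells was compared after each cell was thinned to 1000 UMIs. At least 3 UMIs of the 38 genes were then found in 31.6% of macrophage-like cells at IR day 1 (36 of 114, exact 95% interval 23.2 to 41.0), 42.1% at IR day 3 (82 of 195, 35.0 to 49.3), 31.2% in MI (88 of 282, 25.8 to 37.0) and 45.5% at day 1 sham (10 of 22). Plates ranged from 1 of 10 cells to 47.1% at IR day 1, from 25.0% to 83.3% at IR day 3 and from 26.7% to 39.6% in MI, so all 3 groups overlapped. The same share in cardiomyocyte-like cells, the class of lowest levels, was 0% to 2.12%. Before thinning it was 91.2%, 91.8% and 98.2% of macrophage-like cells at IR day 1, IR day 3 and MI, with median depths of 8885, 8383 and 22834 UMIs.

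In endothelial-like cells, 4 of the 24 tested members were lower at IR day 1 than at day 1 sham and 0 were higher. That is 16.7% of the members lower, while among 3315 genes 14.7% were called and 8.36% were lower. The median log2 fold change was −0.63 over the members and −0.02 over all genes. The 4 were Rsad2 (1 of 9 antiviral effectors tested), Gbp2 and Gbp7 (2 of 4 GTPases) and Irf1 (1 of 3 transcription factors).

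Rsad2 had 232, 292, 511 and 348 CPM in the 4 plates of day 1 sham and 0, 15.7 and 173 at IR day 1, where 4 of 9 plates were at 0. The groups did not overlap and the log2 fold change was −2.85 ± 0.52 (adjusted p = 0.000206). Across all groups it averaged 346 ± 120 at day 1 sham, 335 ± 79.3 at day 14 sham (n = 4), 51.1 ± 63.8 at IR day 1 (n = 9), 94.4 ± 19.7 at IR day 3 (n = 3), 384.4 ± 150 at IR day 14 (n = 3) and 72.8 ± 78.9 in MI (n = 5). It was thus low in the plates of days 1 and 3 after injury and at sham level at day 14.

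Gbp2 had 144, 206, 103 and 98.3 CPM at day 1 sham and 0, 31.5 and 138 at IR day 1 (−1.72 ± 0.47, adjusted p = 0.00994). Gbp7 had 303, 258, 160 and 125 against 0, 68.2 and 132 (−1.57 ± 0.40, adjusted p = 0.00595), and Irf1 had 200, 301, 88.6 and 188 against 0, 57.4 and 128 (−1.66 ± 0.46, adjusted p = 0.0114). In each of the 3 genes the highest plate of IR day 1 reached into the sham range. Members not called ran from −1.21 to 0.78, with Isg15 at −0.81 ± 0.57 (adjusted p = 0.368), Ifit3 at −1.02 ± 0.95 (0.524) and Ifitm3 at 0.28 ± 0.28 (0.547). Irf7 did not pass the filter in this class.

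The endothelial-like groups were drawn from different clusters. The cluster led by Cd300lg, C1qtnf9, Kdr and Aqp1 held 97 of 109 cells at day 1 sham, 76 of 79 at day 14 sham (68 of 71 without the second copy of a plate), 39 of 82 at IR day 1, 22 of 34 at IR day 3, 48 of 57 at IR day 14 and 3 of 58 in MI. The cluster led by Plvap, Vwf, Apln and Selp held 5, 3, 35, 12, 4 and 54 of those cells. Rsad2, with cells pooled over plates, stood in the Cd300lg cluster at 434 CPM in day 1 sham, 330 in day 14 sham (317 without the second copy), 142 at IR day 1, 166 at IR day 3 and 356 at IR day 14, and in the Plvap cluster at 5.54 at IR day 1 and 79.3 in MI. Within the Cd300lg cluster Rsad2 was still lower at IR day 1 (−1.45, adjusted p = 0.0439), the only 1 of 21 tested members called, where 5.13% of all genes were. Gbp2 (−0.57, adjusted p = 0.601), Gbp7 (−1.04, 0.277) and Irf1 (−0.65, 0.554) were not. With only the compared groups in the fit 3 members passed the filter and Rsad2 was called, while Gbp2, Gbp7 and Irf1 were not tested. Without replicate 2 of day 1 sham 2 of 22 were called, Rsad2 and Gbp7, and the share of all genes called in that fit is not given here. The 8 cardiomyocyte markers in these endothelial-like cells ran from 8310 to 13111 CPM (median 11800) at day 1 sham and from 238 to 7425 (median 2332) at IR day 1, with no overlap. With cells that carried markers of another class left out they had medians of 6380 and 2335, and 4 of 29 tested members were lower (4.09% of all genes). The part of the remaining marker signal was not tested.

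**Figure D4:**
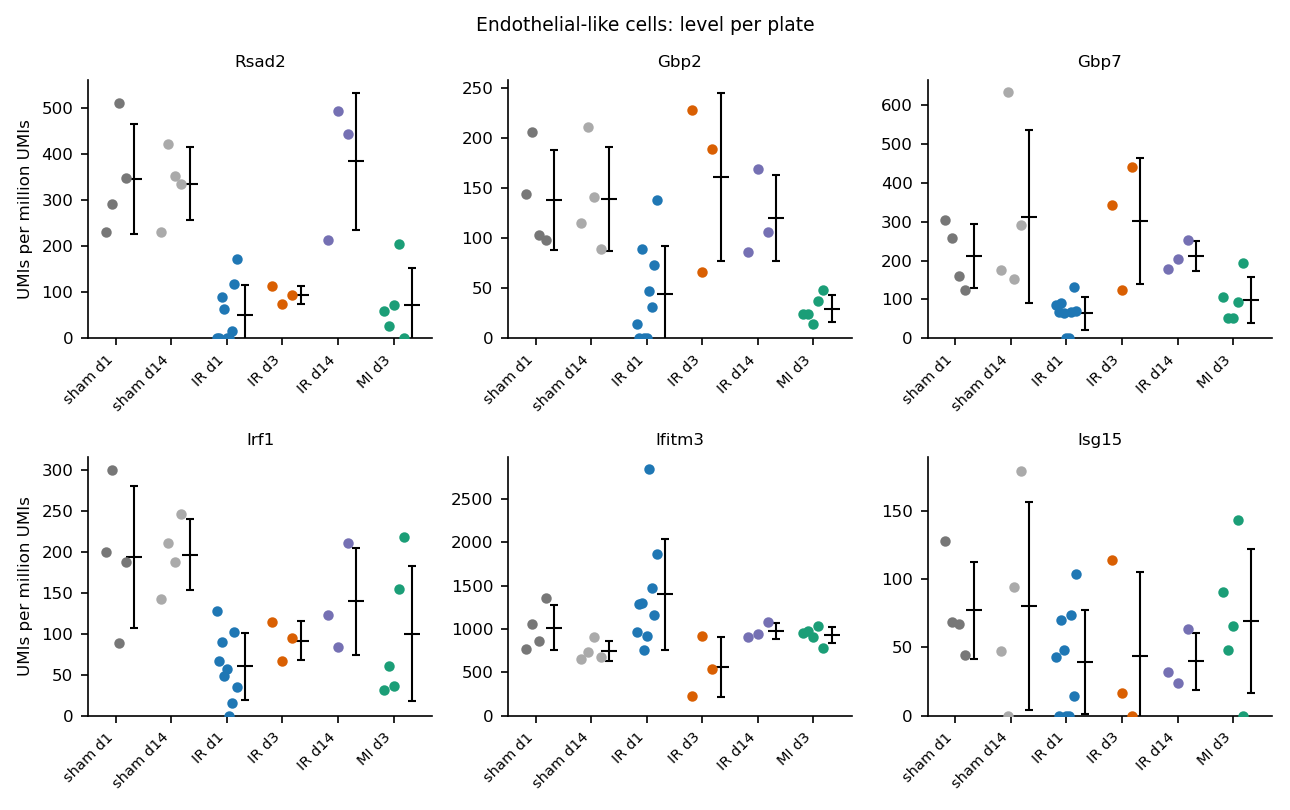
Levels of Rsad2, Gbp2, Gbp7, Irf1, Ifitm3 and Isg15 in endothelial-like cells, in CPM (vertical axes, separate scales), by group. Each point is 1 plate and black bars give mean ± SD, cut at 0. All Rsad2 points of both shams and IR day 14 lie at 214 or above, and those of IR day 1, IR day 3 and MI at 204 or below.

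Endothelial-like cells of MI day 3 had 7 of 24 members lower than both shams (days 1 and 14 weighted equally) and 0 higher. That is 29.2% of the members lower, while 35.8% of all genes were called and 17.4% were lower, with a median of −0.93 over the members and 0.06 over all genes. They comprised 3 of 4 GTPases, 2 of 9 antiviral effectors, 1 of 3 transcription factors and 1 of 6 others. Gbp2 had 23.9, 24.0, 14.6, 36.8 and 48.5 CPM in MI, below all sham plates (144, 206, 103 and 98.3 at day 1, and 115, 211, 141 and 89.7 at day 14), a log2 fold change of −2.33 ± 0.46 (adjusted p = 0.000126). Rsad2 had 59.6, 27.0, 72.9, 204 and 0, again below the shams, whose lowest plate was 230 (−2.11 ± 0.47, adjusted p = 0.000536).

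The other 5 overlapped between groups. Gbp7 changed by −1.48 ± 0.37 (adjusted p = 0.00186), Gbp3 by −1.48 ± 0.52 (0.0236), Irf1 by −1.23 ± 0.42 (0.0209), Parp14 by −1.18 ± 0.37 (0.0129) and Ifit1 by −1.60 ± 0.64 (0.0497). Ifit1 had 59.6, 14.999, 7.29, 49.0 and 0 CPM in MI against 35.3 to 211 in the 8 sham plates, and its call was lost in 15 of 26 alternatives. Members not called ran from −1.40 to 0.16, with Ifitm3 at 0.04 ± 0.26 (adjusted p = 0.933), Isg15 at −0.14 ± 0.49 (0.86) and Ifit3 at −0.46 ± 0.74 (0.669). Ifitm3 thus stayed near 929 ± 95.7 in MI and 1012 ± 261 and 744 ± 114 in the shams. MI and sham plates shared no cluster with 5 cells per plate in both, so the comparison could not be made within a cluster. Cardiomyocyte markers in these cells had medians of 195 CPM in MI and 11800 and 26026 in the shams. With cells that carried markers of another class left out these were 146, 6380 and 7186. In that fit 8 of 29 members were lower (9.28% of all genes), 5 of them among the 7, and Ifit1 (−1.66, adjusted p = 0.0507) and Irf1 (−1.21, 0.053) were not called. The part of the remaining marker signal was not tested.

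At day 14 no member differed between IR and sham in endothelial-like cells, and none differed between the shams of days 1 and 14. For IR day 14 edgeR called 0 of 24 members, 0 of them had an unadjusted p below 0.05, DESeq2 called 0, and 0% of all 3315 genes were called. The members ran from −1.24 to 1.11 with a median of −0.08, against 0.02 over all genes. Rsad2 was at 0.37 ± 0.58 (adjusted p = 0.993), Ifitm3 at 0.53 ± 0.36 and Isg15 at −1.09 ± 0.81 (both 0.915), and 3 plates of IR leave changes of such a size undetectable. Between the shams edgeR called 0 of 24, 1 had an unadjusted p below 0.05, DESeq2 called 0, and the share of all genes was again 0%. Members ran from −1.69, for Ifi44 (± 0.80, adjusted p = 0.56), to 0.72 with a median of −0.26, against 0.03 over all genes. Ifi44 had 38.9 ± 37.1 CPM at day 1 sham and 184 ± 167 at day 14 sham. Ifitm3 was at 0.61 ± 0.33 (0.635), Rsad2 at 0.30, Gbp2 at 0.22, Irf1 at 0.16, Isg15 at 0.02 and Ifit3 at −0.82.

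In fibroblast-like cells 5 of 25 tested members were lower in MI day 3 than at IR day 3 and 0 were higher, where 8.37% of 5973 genes were called and 5.22% were lower. The median was −0.81 over the members and 0.02 over all genes. Ifi202b is among the 5 and its call is not read, since it passed the filter through the IR day 3 plates in which it was high, and without it 4 of 24 were lower with a median of −0.77. GTPases gave 2 of 4, and transcription factors 1 of 4, others 1 of 5 and antiviral effectors 0 of 7. Gbp3 had 39.4, 7.19, 49.7 and 99.0 CPM in the 4 plates of IR day 3 and 2.35, 5.64, 3.98, 5.17 and 5.11 in MI (−3.38 ± 0.75, adjusted p = 0.00519). Gbp2 had 78.8, 14.4, 49.7 and 72.0 against 9.997, 12.7, 5.11, 7.23 and 8.52 (−2.46 ± 0.61, adjusted p = 0.0117). Neither gene overlapped between groups. At IR day 3 Gbp3 rested on 2, 2, 2 and 11 UMIs and Gbp2 on 4, 4, 2 and 8, so these levels are coarse.

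Irf7 had 98.5, 18.0, 24.9 and 99.0 CPM against 17.1, 16.9, 5.68, 5.17 and 17.9 (−2.22 ± 0.67, adjusted p = 0.0373). The lowest plate of IR day 3 lay just above the highest of MI. Ifi27l2a had 78.8, 151, 249 and 189 against 66.4, 85.9, 40.9, 66.1 and 45.1 (−1.50 ± 0.40, adjusted p = 0.0184), with 1 MI plate inside the range of IR day 3. Ifi202b had 0, 57.5, 0 and 89.99 against 0 in each MI plate, 26 UMIs of 480343 against 0 of 7023173, which is at least 127-fold lower. Members not called ran from −3.08 to 0.57, with Ifit1 at −3.08 ± 1.01 (adjusted p = 0.057), Ifit3 at −2.53 ± 0.93 (0.088), Irf1 at −0.63 ± 0.55 (0.534) and Ifitm3 at 0.57 ± 0.28 (0.226). Isg15 was not tested here.

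These fibroblast-like groups too came from different clusters, since the one led by Timp1, Tnc, Cthrc1 and Col1a1 held 131 of 132 cells of MI and 37 of 57 of IR day 3, and the one led by Pi16, Gsn and Dcn held the other 20. Within the Timp1 cluster 0 of 5 tested members were called, with the share of all genes in that fit not given, and Ifi27l2a was at −1.24 (adjusted p = 0.0984). Pooled over plates in that cluster, IR day 3 and MI stood at 51.5 and 8.69 CPM for Gbp2, 43.8 and 4.27 for Gbp3, 46.4 and 12.7 for Irf7, and 126 and 59.8 for Ifi27l2a. Without replicate 7 of IR day 3, 0 of 23 tested members were called, and without MI replicate 3 there were 3 of 24. The shares of all genes called in these fits are not given, so a loss among the members cannot be told from a loss among all genes. Cardiomyocyte markers had medians of 2965 CPM at IR day 3 and 139 in MI in these cells, and 1974 and 139 with cells that carried markers of another class left out, where 5 of 24 members were lower (4.75% of all genes). The part of the remaining marker signal was not tested.

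Cardiomyocyte-like cells gave few members enough counts. For IR day 3 against both shams edgeR called 0 of 6 tested, 0 had an unadjusted p below 0.05 and DESeq2 called 0, while 6.39% of 5934 genes were called. Ifi27l2a was at 1.199 ± 0.71 (adjusted p = 0.391), Isg15 at −0.77 ± 0.77 (0.675) and Ifitm3 at 0.06 ± 0.38 (0.96), and the medians were 0.09 over members and 0.08 over all genes. MI day 3 was 1 plate with 6 cells and 78951 UMIs, in which Ifitm3 had 25.3 CPM (2 UMIs) and Isg15 12.7 (1 UMI), so no test is read there. For IR day 14 against day 14 sham the counts were 0 of 6, 0 and 0, with 0.708% of all genes called and medians of −0.11 and 0.15. Isg15 was at 1.09 ± 0.79 (0.943) and Ifitm3 at −0.11 ± 0.48.

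In neutrophil-like cells 2 members, Slfn2 and Ifitm3, passed the filter for MI day 3 against IR day 1. edgeR called 0 of 2, Slfn2 had an unadjusted p below 0.05, DESeq2 called 0, and 16.8% of the 493 genes tested were called. Slfn2 ran from 322 to 1223 CPM at IR day 1 (n = 9) and from 228 to 557 in MI (n = 5), a log2 fold change of −0.76 ± 0.34 (adjusted p = 0.12). Ifitm3 was at −0.13 ± 0.40 (0.828). The medians were −0.45 over the pair and −0.10 over all genes. Isg20, a nuclease that was not tested, had 96.0 ± 62.8 at IR day 1 and 22.8 ± 23.3 in MI.

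**Figure D5:**
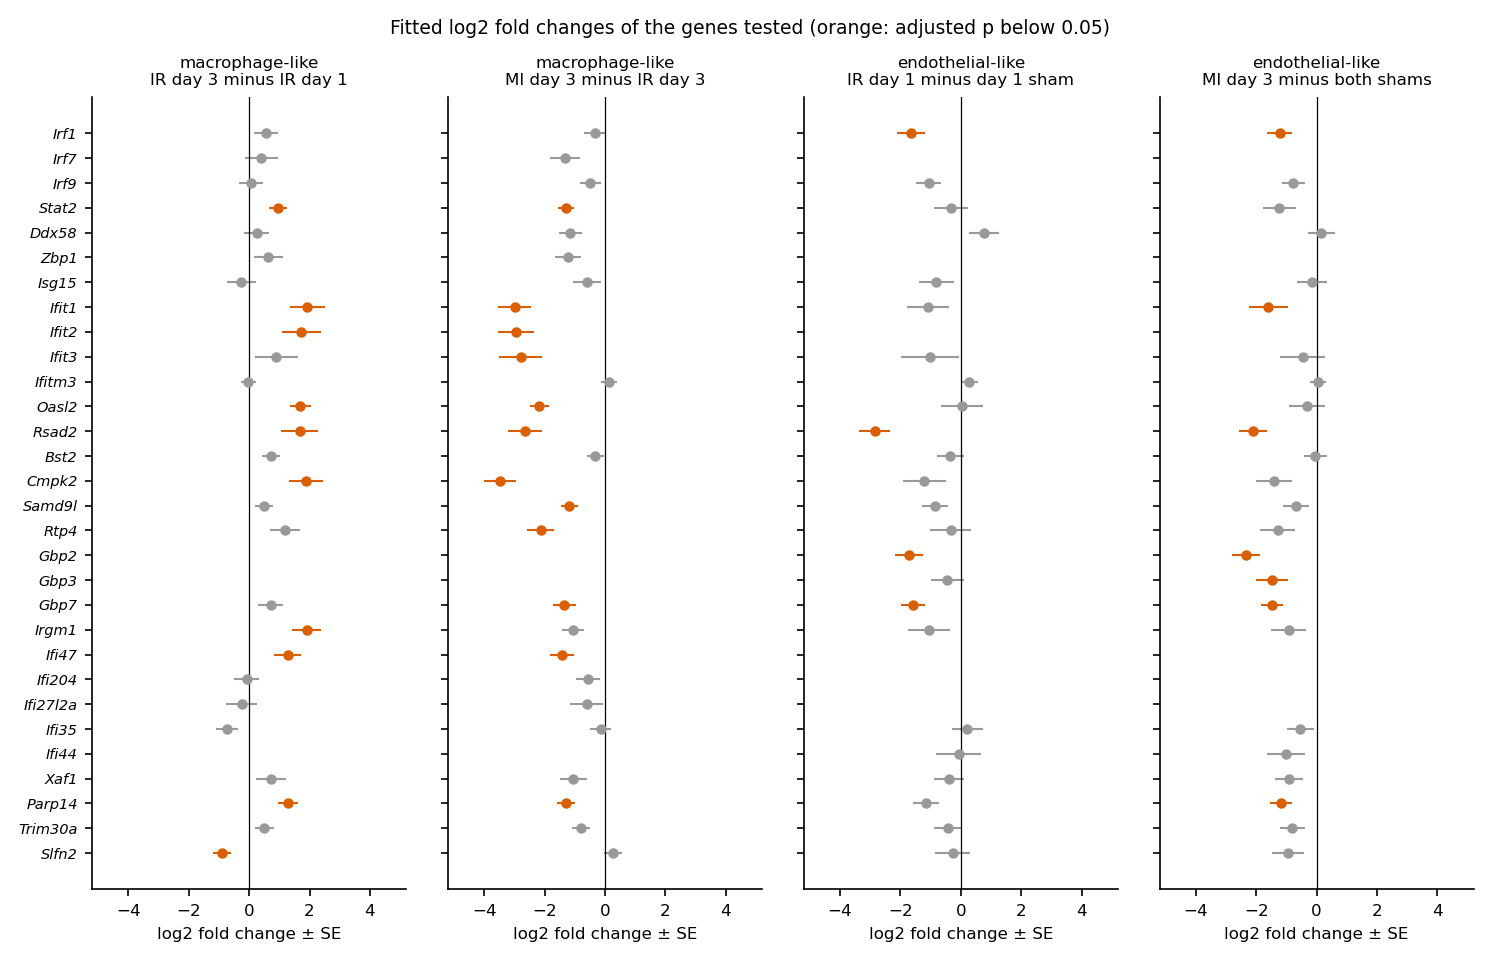
Log2 fold changes with SE (horizontal axis) of 30 members tested in any of 4 comparisons, 2 in macrophage-like and 2 in endothelial-like cells. Orange marks adjusted p below 0.05. Ifi202b is left out because its size rests on zeros. Orange points of the IR day 3 against IR day 1 panel lie right of 0 except Slfn2, and those of the other panels lie left of 0.

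Other genes of the interferon pathway that are not among the 38 (60 listed, 56 in the tables) were called in both directions. No interferon ligand of the 5 listed had enough counts to be tested in any class. In macrophage-like cells 7 of 35 were higher and 6 lower at IR day 3 than at IR day 1, where 13.9% of all genes were higher and 26.0% were called. All macrophage-like values here include the Ccr2 cluster and the cells with B cell markers, and no fit without them is given for these genes. They were led by Lgals3bp (1.47 ± 0.32, adjusted p = 0.000898), Ifi203 (1.31 ± 0.30, 0.00142), the transcription factor Irf5 (−1.17 ± 0.27, 0.00159), Ifitm1 (−2.55 ± 0.66, 0.00444) and the RNA sensor Tlr7 (1.11 ± 0.30, 0.00672). In MI against IR day 3, where 3.87% of all genes were lower, 8 of 35 were lower and 0 higher, among them Ifi203 (−2.16, adjusted p = 7.01e-06), Mx1 (−2.93, 0.00401), Lgals3bp (−1.46, 0.00478) and Slfn5 (−1.40, 0.00861). In MI against IR day 1, with 6.37% of all genes called, Irf2 (−0.74, adjusted p = 0.0171) and Slfn5 (−1.08, 0.0422) were lower and 0 of 35 higher.

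In endothelial-like cells 4 of 24 such genes were lower at IR day 1 than at sham and 0 higher, where 8.36% of all genes were lower. These were Ifi203 (−1.76, adjusted p = 0.00606), Gbp4 (−1.77, 0.00689), Ly6e (−0.79, 0.00765) and Uba7, the enzyme that activates ISG15 (−1.85, 0.00971). In MI, where 17.4% of all genes were lower and 35.8% called, 7 of 24 were lower, led by Slfn5 (−2.17, adjusted p = 1.03e-06) and Ifi203 (−2.70, 2.25e-05), and 1 was higher, the JAK inhibitor Socs3 (1.56, 0.0262). For IR day 14 and between the shams edgeR called 0 of 24. In fibroblast-like cells 4 of 27 were lower in MI than at IR day 3 and 0 higher, against 5.22% of all genes lower, namely Lgals3bp (−1.45, adjusted p = 0.00243), Slfn5 (−1.78, 0.0078), Tor3a (−2.23, 0.0152) and Irgm2 (−2.86, 0.0245). In cardiomyocyte-like cells at IR day 3, Lgals3bp (1.88, adjusted p = 0.000761) and the receptor chain gene Ifnar2 (1.02, 0.0422) were higher than in the shams, and the RNA-dependent kinase gene Eif2ak2 (−1.68, 0.0016) and Slfn8 (−1.66, 0.0124) were lower, of 19 tested, where 6.39% of all genes were called. Macrophage markers in the same cells had medians of 897 CPM at IR day 3 and 109 and 37.7 in the shams, and fibroblast markers 2493 against 409 and 196, and their part was not tested.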

How the data were processed

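Per the labels and the methods of the study, reads were mapped to GRCm38/mm10 with BWA (version not given in the sources used here), and UMIs of 6 bases (at most 4096 per gene and well) were counted. The deposited values are counts of UMIs per gene and well, made by the authors before any filter used here and with no normalization. The strand setting is not given in the sources used here. Mitochondrial genes and spike-ins were left out of library sizes, and wells under 1000 nuclear UMIs, copied wells and plates with fewer than 5 cells of a class were left out.

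Cells were clustered with scanpy 1.11.5 and leidenalg 0.10.2 (2000 variable genes without the 38 members, 30 components, 15 neighbours, resolution 1, seed 1). A cluster was named where at least 3 markers of 1 list were at least 2-fold above the other clusters and at 0.5 or more per 10000 UMIs, and outnumbered the next list 2 to 1. This naming rule was revised after class tables and marker counts had been seen, but not member levels. Unnamed cells (398) and 20 mural-like cells were not compared. No doublet caller was run. As an alternative, 562 cells whose marker level for another class reached 0.25 of that class's own median were left out.

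Counts were summed per plate and class and tested with edgeR 4.0.16 (filterByExpr, TMM, quasi-likelihood, all groups of a class in 1 fit, two-sided), with DESeq2 1.42.0 as an alternative, in R 4.3.3. Day 14 sham replicates 2 and 7 were averaged as 1 plate, and replicate 2 of IR day 3 had no cell kept. The interval of the Ifi202b UMI ratio covers counting error only. Those of cell shares are exact over cells, and those of log2 fold changes come from the SE of the edgeR fit over plates. The test was checked on simulated data. The members and gene lists were chosen with earlier results of these data known. All called members were to be named, plus Isg15, Ifit3, Irf7, Ifitm3, Irf1 and Gbp2 where not called. Alternatives covered scaling, gene and cell filters, clustering, the ribosomal transcript Rn45s, cells with B cell markers, single clusters, and each plate left out.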

Additional observations from a re-analysis of the deposited data

Results flagged for a closer look

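In 89 sets of 4 to 10 plates (1 gene in 1 class and group), 9 held a plate whose gap to the next was large against the range of the group by Dixon's test, and chance gives about 1 such set in 20. All 9 were in macrophage-like cells and were high, in CPM. IR day 1 replicate 3 had 137.2 for Ifit1 (next highest plate 13.3), 124.1 for Ifit2 (12.11) and 199.3 for Rsad2 (46.82), and it held the 1 cell of IR day 1 with over 2% of its UMIs in the 38 genes. IR day 1 replicate 6 had 85.89 for Irgm1 (next 26.13). IR day 3 replicate 4 had 378.7 for Rsad2 (next 110.6) and 98.41 for Ifit3 (next 17.7), and it held 2 of the 3 such cells of IR day 3. IR day 3 replicate 1 had 317.2 for Slfn2 (next 169.8), replicate 3 had 203.8 for Gbp7 (next 97.6) and replicate 5 had 219.6 for Rtp4 (next 96.98), and these 3 plates held few UMIs of the class.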

How the results depend on the processing

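The count of called members was 0 under all alternatives for IR day 14 and sham day 1 against sham day 14 in endothelial-like cells, MI and IR day 14 in cardiomyocyte-like cells, and neutrophil-like cells, where few or no genes were called or few members tested, so it says nothing about stability. The others moved as follows, and the causes were not tested unless named. The counts stand here without the share of all genes called in each fit, so whether that share moved with them is not shown. For macrophage-like IR day 3 against IR day 1 (11), the count was 1 with only the compared groups (7 members tested, 9 of the 11 not), 6 in wells of at least 2000 UMIs (16 tested), 1 without IR day 3 replicates 4, 6 and 7, 5 without the top cell of each plate, 7 without cells with B cell markers, 1 without the Ccr2 cluster (1 plate of IR day 1), 0 in the Ccr2 cluster (16 tested), 1 in the Gpnmb cluster (1 plate of IR day 1), and 3 to 13 with a plate left out (3 without IR day 3 replicate 4, 6 without its replicate 7, 7 without IR day 1 replicate 4 or 7). For MI against IR day 1 (0) it was 1 with 10 cells per plate, with RLE scaling and without top cells, 3 with no gene filter, 2 in DESeq2, 6 in the Gpnmb cluster (1 plate of IR day 1 against 2) and 0 to 1 with a plate left out. For MI against IR day 3 (13) it was 20 with no gene filter and with only the compared groups, 7 in wells of at least 2000 UMIs (16 tested), 22 without the Ccr2 cluster (33 tested), 1 without replicates 4, 6 and 7, 0 in the Ccr2 cluster (16 tested) and 6 to 14 with a plate left out (6 without IR day 3 replicate 4). In endothelial-like cells, IR day 1 against sham (4) gave 2 with 10 cells per plate, 1 with only the compared groups (3 tested), 1 in the Cd300lg cluster and 2 to 6 with a plate left out (2 without sham replicate 2), and MI against shams (7) gave 11 with copied wells kept and 3 to 8 with a plate left out (3 without MI replicate 2). Fibroblast-like cells (5) gave 8 with 10 cells per plate, with no gene filter and with copied wells kept, 0 without replicates 4, 6 and 7, 0 in the Timp1 cluster (5 tested) and 0 to 7 with a plate left out (0 without IR day 3 replicate 7, 3 without MI replicate 3). Cardiomyocyte-like IR day 3 (0) gave 1 with no gene filter. The share of macrophage-like cells with 3 member UMIs in day 1 sham, IR day 1, IR day 3 and MI was 80.95%, 61.17%, 72.67% and 62.01% at 2000 UMIs and 95.45%, 91.23%, 91.79% and 98.23% unthinned. At 2000 UMIs 1, 11, 34 and 3 shallower cells were left out as well. The cluster, B cell marker, top-cell and joint 3-plate settings were chosen after seeing the data.

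Called genes had the opposite sign under 2 settings. In the Gpnmb cluster, where IR day 1 is replicate 3 alone (9 cells, 5171 CPM of the 38 genes, the plate with the high Ifit1, Ifit2 and Rsad2 values), IR day 3 against IR day 1 gave Ifit1 −0.42, Ifit2 −1.16, Stat2 −0.48, Oasl2 −0.85, Rsad2 −0.31, Irgm1 −0.43 and Cmpk2 −1.01, and 1 plate cannot show that these genes turned. Without IR day 3 replicates 4, 6 and 7, Rsad2 gave −2.51 against IR day 1, and MI against IR day 3 gave 4.52 for Ifit3 and 1.62 for Rsad2. Of 40 uncalled gene values in the text, 27 changed sign under at least 1 setting.

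Replicate numbers did not pair the plates: over 44 same-numbered pairs the correlation of deviations ran from −0.151 to 0.099. With the replicate block the count was 7 for macrophage-like MI against IR day 3 and 0 for fibroblast-like cells, and within 1.5 times of the reported one elsewhere. The share of all genes called in those fits is not given either.

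Depth limits the rest. Plates of macrophage-like cells at IR day 3 held 28370 to 1402314 UMIs, and in 3 of the 6 plates 3 UMIs amount to 73.2 to 106 CPM.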
